A study of Homo sapiens with 6 samples.

Results

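The BCL2 family genes described here were 10 genes chosen by name among the 58735 genes of the expression table. They were the 4 pro-survival genes BCL2, BCL2L1, BCL2L2 and MCL1, the effector BAK1, and the 5 BH3-only genes BID, BAD, BIK, BMF and BCL2L11. Each was measured in 6 RNA sequencing libraries of RKO, an established human colorectal carcinoma line. The 3 Vector libraries came from control cells, which the labels call the negative control, and the 3 LOC_OE libraries from cells labelled LOC101927668 overexpression. LOC101927668 is a long noncoding RNA. For the LOC_OE cells its full-length transcript had been delivered by lentivirus in a plenti6 plasmid, followed by selection with puromycin. The series calls the 3 samples of each group biological replicates, and nothing states whether they came from separate infections. The comparison asked how the transcripts of the family differed between the 2 groups of this 1 cell line.

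Proteins of the BCL2 family decide at the outer mitochondrial membrane whether a stressed cell survives. Pro-survival members bind and restrain the effectors BAX and BAK1. BH3-only members, which are induced or activated by stress, occupy the pro-survival proteins or engage the effectors directly, and freed effectors open the membrane so that cytochrome c leaves it and caspases are activated. Some of these genes are spliced into products of opposite action, and the values below are for all transcripts of a gene together.

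All 10 genes were listed above 0 in at least 5 of the 6 libraries and passed the filter for testing (0.5 FPKM or more in 3 or more libraries), BMF only through its Vector libraries. FPKM are fragments scaled by gene length and library size, so levels of different genes can be set side by side within a library. In LOC_OE, transcripts of the pro-survival gene BCL2L1 fell to 52.6% of the Vector mean, those of the BH3-only gene BMF fell 6.59-fold, and those of the BH3-only gene BID rose 2.03-fold. These ratios are of mean FPKM, while the log2 fold changes below, unless another scale is named, were fitted by limma on log2(FPKM + 1), which understates the change of low genes. After Benjamini-Hochberg adjustment over all 16061 genes tested, and at a threshold of 0.05, 1 member was higher, 2 were lower and 7 passed in neither direction. Of the 2 lower members, BMF was tested only because of the group in which it was high, so its call is no support for the count. Among all genes tested, 20.4% were called in either direction, 10.7% as higher and 9.74% as lower. Only the calls of BCL2L1 and BID are to be read against these shares. Both had a fold change of at least 1.5, as had BMF. Such a fold change held together with the adjusted p-value for 10.2% of all genes tested. In the deposited FPKM the groups did not overlap for 5 of the 10 members (BCL2L1, MCL1, BID, BMF and BCL2L11), against 45.3% of all genes. BMF is no support for this count either. The median log2 fold change was 0.068 over the members and 0.019 over all genes tested.

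The libraries held between 15008842 and 18410231 reads on genes. Their FPKM summed to 264150 to 280648 in Vector and 305702 to 360434 in LOC_OE, with the highest sum in LOC_OE replicate 1. The FPKM times exon length that stood for 1 read was 53.3 to 53.9 in Vector and 62.4 to 68.1 in LOC_OE. In LOC_OE replicate 1 it was 62.5, although that library held the most reads on genes. The deposited scale thus did not follow the reads on genes. All ranges and overlaps given here are of the FPKM as deposited, without correction for these differences. Reads on LOC101927668 numbered 1, 1 and 0 in Vector and 231, 270 and 276 in LOC_OE, at least 103-fold more FPKM than 3 reads would give in a Vector library. LOC_OE replicate 1 stood apart. Across genes, its log2(FPKM + 1) correlated with the other LOC_OE libraries at r = 0.967 and 0.962, while pairs of Vector libraries reached 0.982 to 0.983. Without it, 35.5% of all genes were called in place of 20.4%, and results that turn on it are given both ways. Of 8 colorectal epithelial markers, 4 passed the filter (EPCAM, KRT8, KRT18 and CDX2), while CDH1, the epithelial cadherin, was at 0 in every library and KRT20, VIL1 and LGALS4 were near 0. The summed FPKM of these markers was 39.3 to 41.5 in Vector and 48.4 to 89.6 in LOC_OE, with the highest sum in LOC_OE replicate 1, and its part in the results below was not tested. Most of that highest sum was KRT18, at 67.5 FPKM against 18.1 to 19.8 in Vector. In the same library KRT8 was lower than in Vector (9.02 against 11.7 to 11.9), and EPCAM and CDX2 were higher. Of the 4 markers tested, 0 were called. Of 9 markers of immune, endothelial and fibroblast cells, 8 were below the filter and the other, CD68, was at most 1.21 FPKM. Their sum was 1.01 to 1.36 FPKM in Vector and 0.344 to 0.757 in LOC_OE, and CD3E, COL1A2 and DCN were at 0 throughout. In RNA of a whole culture, fewer cells of a type and less RNA per cell cannot be told apart.

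**Figure D1:**
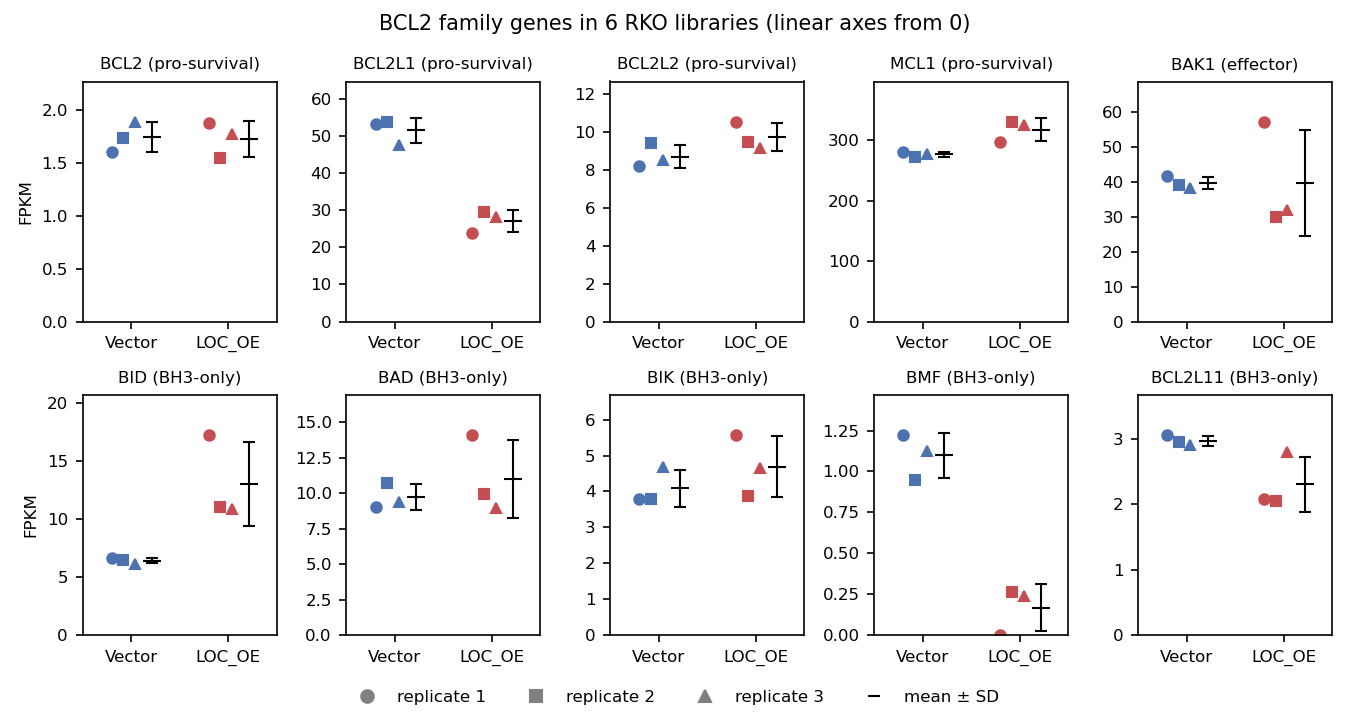
FPKM of the 10 members in each of the 6 libraries, 1 panel per gene on a linear axis from 0, with a symbol for each replicate and the mean ± SD of each group beside it. The BCL2L1 points of LOC_OE lie between 23.8 and 29.5 FPKM, below the Vector range of 47.7 to 53.9, and the BID points of LOC_OE lie between 10.9 and 17.2, above the Vector range of 6.14 to 6.64.

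Among the pro-survival genes, BCL2L1 was the only one called. It encodes BCL-XL, the long isoform that protects mitochondria, and a short pro-apoptotic isoform. Its gene (ENSG00000171552) spans chr20:31664452-31723989 on the minus strand of GRCh38. BCL2L1 was at 53.2, 53.9 and 47.7 FPKM in the Vector libraries and at 23.8, 29.5 and 28.1 in the LOC_OE libraries. Every LOC_OE library was below every Vector library, and replicate 1 was the lowest of the 3. The mean was 51.6 ± 3.38 FPKM in Vector and 27.1 ± 2.97 in LOC_OE (SD, n = 3 each), resting on 1264 to 3318 reads per library. The log2 fold change was -0.91 (SE 0.11, 95% interval -1.16 to -0.65, adjusted p = 0.00654 by limma). Each LOC_OE library lay below the Vector mean, by log2 ratios of -1.08, -0.78 and -0.85. The call held in all 15 alternative fits, including those without each library, where the adjusted p ran from 0.00125 to 0.0486. By an exact permutation test of a single gene, 3 against 3 libraries cannot give a two-sided p below 0.10, which was the value for BCL2L1, BID and BMF alike.

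ABALON, an antisense transcript annotated across BCL2L1, shares 1424 bases of exon with it, 43% of the BCL2L1 exon length. Its FPKM was 5.55, 6.03 and 5.20 in Vector and 1.38, 2.52 and 2.22 in LOC_OE, so the groups did not overlap here either. The log2 fold change of ABALON was -1.13 (SE 0.16, adjusted p = 0.00880 by limma), and without Vector replicate 2 its adjusted p was 0.0564. Since no source states the strand of the reads, those of the sense and the antisense gene cannot be told apart. BCL2L1 stayed the larger by far, with 8.95 to 9.59 times the FPKM of ABALON in Vector and 11.7 to 17.3 times in LOC_OE. Within 5 Mb on either side of BCL2L1, 87 genes were tested, of which 0 were called as higher and 17 as lower, with a median log2 fold change of -0.27, against -0.17 over the 414 tested genes of chromosome 20. The part of this regional shift in the BCL2L1 value was not tested.

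MCL1 encodes a short-lived pro-survival protein that many tumour cells depend on. With 281, 272 and 277 FPKM in Vector and 296, 331 and 325 in LOC_OE, it was the most abundant member in every library. In the deposited FPKM the groups did not overlap, and LOC_OE replicate 1 was the closest to the Vector libraries. The log2 fold change was 0.20 (95% interval -0.020 to 0.41, adjusted p = 0.170 by limma). Without LOC_OE replicate 1 it was 0.25 (0.12 to 0.37, adjusted p = 0.0152), but with all 6 libraries its sign turned on rescaling to equal sums of FPKM (-0.064) or quantile normalization (-0.12).

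BCL2 and BCL2L2, which encode the founding member and BCL-W, were not called. BCL2 was at 1.60, 1.74 and 1.89 FPKM in Vector and 1.87, 1.54 and 1.77 in LOC_OE. These ranges overlapped almost completely, and the log2 fold change was -0.0090 (95% interval -0.25 to 0.23, adjusted p = 0.957 by limma). BCL2L2 was at 8.22, 9.42 and 8.52 FPKM in Vector and 10.6, 9.50 and 9.16 in LOC_OE, again with overlap. Its log2 fold change was 0.14 (95% interval -0.074 to 0.36, adjusted p = 0.301 by limma). Both intervals exclude a change as large as that of BCL2L1.

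As a group, the 4 pro-survival genes summed to 335 to 344 FPKM in Vector and 333 to 372 in LOC_OE, so the ranges overlapped while the make-up of the sum differed. MCL1 supplied 80.7% to 82.7% of it in Vector and 89.1% to 89.3% in LOC_OE. BCL2L1 supplied 14.2% to 16.0% in Vector and 7.16% to 7.95% in LOC_OE. The ratio of MCL1 to BCL2L1 was 5.04 to 5.81 in the Vector libraries and 11.2 to 12.4 in the LOC_OE libraries, with no overlap, as the plot of ratios by library shows. These shares follow from the single-gene values above and were given no test of their own. They are shares of these 4 genes and not of all pro-survival transcripts. BCL2A1, a pro-survival gene and no member here, was named after its values were seen. It was at 78.5, 71.9 and 75.4 FPKM in Vector and 41.0, 66.3 and 50.7 in LOC_OE, above BCL2L1 in every library. BCL2A1 was not called (log2 fold change -0.53, adjusted p = 0.0734 by limma).

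BAK1 (BAK), the effector that sits in the mitochondrial membrane of healthy cells, was at 41.7, 39.2 and 38.3 FPKM in Vector and at 57.4, 29.9 and 32.0 in LOC_OE. LOC_OE replicate 1 lay above all Vector libraries and the other two lay below them. Over all libraries the difference on the log2 scale was -0.060 (95% interval -0.64 to 0.52, adjusted p = 0.881 by limma), an interval wide enough to hold a change of 1.5-fold in the lower direction. Without LOC_OE replicate 1, it was -0.35 (-0.49 to -0.21, adjusted p = 0.00732). BAX, the other effector and no member here, was at 53.6, 54.3 and 50.3 FPKM in Vector and 53.6, 36.9 and 32.1 in LOC_OE, with a log2 fold change of -0.39 (adjusted p = 0.178) and, without LOC_OE replicate 1, -0.60 (adjusted p = 0.00306). With all 6 libraries, BAX was also called lower with equal sums of FPKM (-0.65, adjusted p = 0.0157), quantile normalization (-0.66, adjusted p = 0.00882) and array weights (-0.52, adjusted p = 0.00122), and BAK1 with array weights (-0.36, adjusted p = 0.0106). For both effectors, LOC_OE replicates 2 and 3 were the 2 lowest libraries.

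BID encodes a BH3-only protein that caspase-8 cleaves to a truncated form, which links death receptors to mitochondria. The gene (ENSG00000015475) spans chr22:17734138-17774770 on the minus strand. BID was at 6.64, 6.44 and 6.14 FPKM in Vector and at 17.2, 11.0 and 10.9 in LOC_OE. All LOC_OE libraries were above all Vector libraries, and replicate 1 was well above the other two. The mean was 6.41 ± 0.251 FPKM in Vector and 13.0 ± 3.62 in LOC_OE (SD, n = 3 each), from 508 to 1225 reads per library. The log2 fold change was 0.89 (SE 0.17, 95% interval 0.47 to 1.31, adjusted p = 0.0196 by limma). Without LOC_OE replicate 1 the rise was smaller and its interval narrower, at 0.69 (0.55 to 0.83, adjusted p = 0.00120). The call was lost without Vector replicate 1, 2 or 3 (adjusted p = 0.0701, 0.0840 and 0.0789), where few genes in all were called. Over the same fits the log2 fold change was 0.87 to 0.91.

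BMF encodes a BH3-only protein that is held by the cytoskeleton until stress releases it. The gene (ENSG00000104081) spans chr15:40087890-40108892 on the minus strand. BMF was the lowest of the 10 members, at 1.22, 0.949 and 1.13 FPKM in Vector and 0, 0.263 and 0.237 in LOC_OE. Its reads numbered 125, 96 and 114 in Vector and 0, 23 and 19 in LOC_OE, and 3 reads, the limit that a count of 0 allows, would be 0.0344 FPKM in LOC_OE replicate 1. This limit covers counting error only. The mean was 1.10 ± 0.139 FPKM in Vector and 0.167 ± 0.145 in LOC_OE (SD, n = 3 each), with no overlap. The log2 fold change was -0.85 (SE 0.14, 95% interval -1.20 to -0.51, adjusted p = 0.0132 by limma). This p is of a gene that reached the filter in 3 Vector and 0 LOC_OE libraries, and it was 0.0246 with no filter. The difference was -2.37 with a pseudocount of 0.1 (95% interval -3.78 to -0.97) and -4.03 by limma voom on the reads (-6.40 to -1.66). The pseudocount of 1 is as large as the level itself, and these 2 larger values rest in part on the 0 reads in LOC_OE replicate 1. Without LOC_OE replicate 1 the log2 fold change was -0.75 (-1.06 to -0.43, adjusted p = 0.00857 by limma). The call was lost without Vector replicate 1, 2 or 3 (adjusted p = 0.0605, 0.0613 and 0.0641).

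BCL2L11 encodes BIM, a BH3-only protein that binds all pro-survival members. It was at 3.06, 2.94 and 2.90 FPKM in Vector and 2.07, 2.05 and 2.79 in LOC_OE. Every LOC_OE library was below every Vector library, replicate 3 only just so. Its log2 fold change was -0.27 (95% interval -0.54 to -0.0029) with an adjusted p of 0.134 by limma, and the unadjusted p was 0.0482. The long noncoding RNA MIR4435-2HG, which shares 727 bases of exon with BCL2L11 on the opposite strand, was higher in LOC_OE (log2 fold change 0.41, adjusted p = 0.0266 by limma). It kept the call only without LOC_OE replicate 1 among the fits that left out 1 library, and lost it with equal sums of FPKM (0.21, adjusted p = 0.258), no filter (adjusted p = 0.0620) and the replicate block (adjusted p = 0.0531). With strand unstated, shared reads of the 2 genes cannot be told apart.

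BAD, which growth-factor signalling keeps phosphorylated and inactive, and BIK, a BH3-only protein of the endoplasmic reticulum, were not called. BAD was at 9.02, 10.8 and 9.38 FPKM in Vector and 14.1, 9.97 and 8.97 in LOC_OE, with replicate 1 alone above the Vector range. Its log2 fold change was 0.15 (95% interval -0.26 to 0.55, adjusted p = 0.570 by limma). BIK was at 3.80, 3.79 and 4.68 FPKM in Vector and 5.57, 3.86 and 4.64 in LOC_OE, and the groups overlapped. Its log2 fold change was 0.15 (95% interval -0.17 to 0.48, adjusted p = 0.457 by limma). For BCL2L2, BAK1, BID, BAD and BIK the highest value of all 6 libraries was that of LOC_OE replicate 1. Other annotated overlaps were GPR137 with BAD (404 shared exon bases, 4.18 to 6.46 FPKM), PPP1R3E and BCL2L2-PABPN1 with BCL2L2 (206 and 813 bases), GGNBP1 with BAK1 (91 bases) and ADAMTSL4-AS1 with MCL1 (2 bases), while BMF-AS1 was at 0 in every library.

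The 5 BH3-only genes among the members summed to 23.7 to 24.9 FPKM in Vector and 27.2 to 39.0 in LOC_OE. BID made up 25.4% to 28.0% of this sum in Vector and 39.5% to 44.2% in LOC_OE, while BMF made up 3.82% to 5.15% and 0% to 0.969%. The ratio of BCL2L1 to BID was 7.77 to 8.37 in Vector and 1.38 to 2.68 in LOC_OE, lowest in replicate 1. This pair joins the pro-survival member called lower and the BH3-only member called higher. The ratio therefore follows from the single-gene values and was given no test. It is no measure of pro-survival over BH3-only transcripts. Of other BH3-only genes, BMF and BBC3 were called lower and PMAIP1 higher. The sum of the 5 genes leaves out other BH3-only genes, so it gives no level for BH3-only transcripts as a whole. Among those left out was BBC3, at 22.5, 20.6 and 20.2 FPKM in Vector and 4.75, 10.6 and 9.05 in LOC_OE. PMAIP1, also left out, was at 11.8, 10.0 and 12.4 in Vector and 14.7, 15.3 and 15.5 in LOC_OE.

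**Figure D2:**
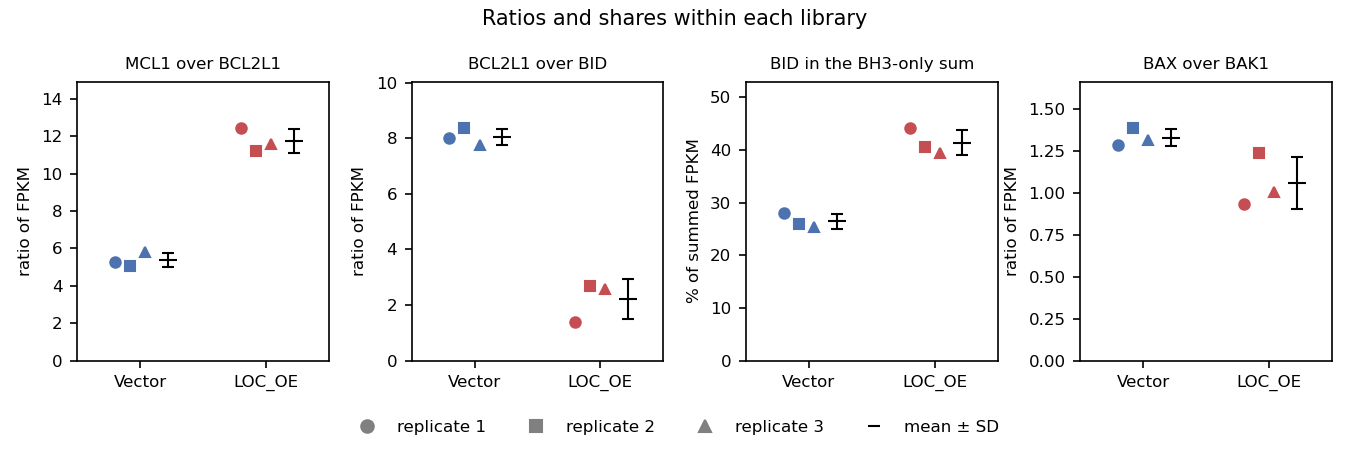
Ratios of FPKM (MCL1 to BCL2L1, BCL2L1 to BID, BAX to BAK1) and the percentage of BID in the sum of the BH3-only members, with a symbol for each replicate and the mean ± SD of each group. The MCL1 to BCL2L1 ratio is 5.04 to 5.81 in Vector and 11.2 to 12.4 in LOC_OE, and the BCL2L1 to BID ratio is 7.77 to 8.37 in Vector and 1.38 to 2.68 in LOC_OE. BCL2L1 and BID are members called in opposite directions, so their ratio follows from the single-gene values and was not tested.

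**Figure D3:**
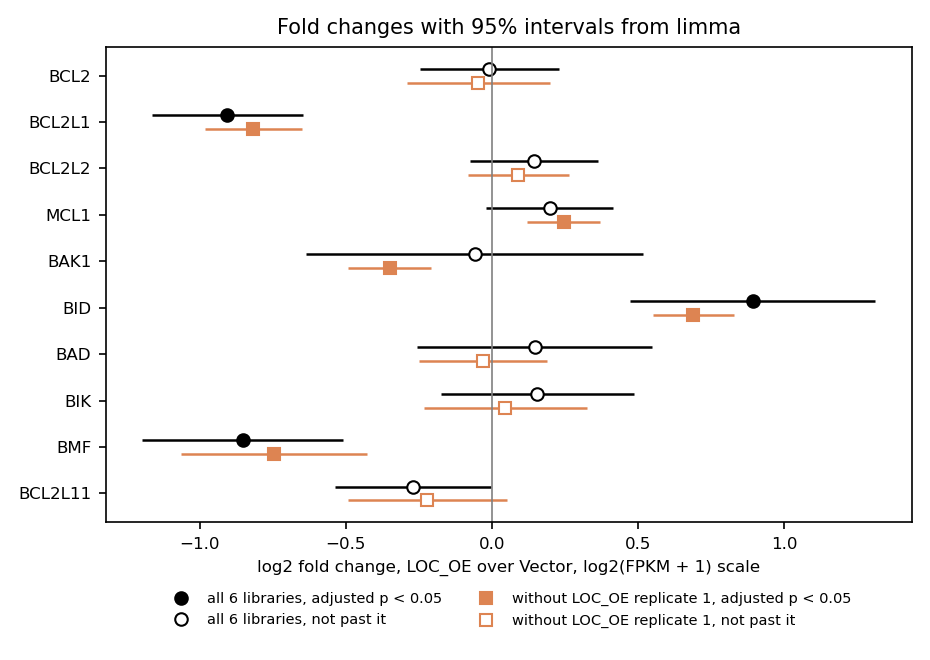
Log2 fold change of LOC_OE over Vector for each member with its 95% interval, fitted on log2(FPKM + 1), from all 6 libraries (black circles) and without LOC_OE replicate 1 (orange squares), filled where the adjusted p is under 0.05. With all libraries, the intervals of BCL2L1 (-1.16 to -0.65), BMF (-1.20 to -0.51) and BID (0.47 to 1.31) lie clear of 0, that of BCL2L11 ends at -0.0029, and BAK1 has the widest interval (-0.64 to 0.52).

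In the order of levels per length, the Vector libraries had MCL1 first, then BCL2L1, BAK1, BAD, BCL2L2, BID, BIK, BCL2L11, BCL2 and BMF. Of neighbours in this order, only BAD and BCL2L2 had overlapping ranges. In LOC_OE the order was MCL1, BAK1, BCL2L1, BID, BAD, BCL2L2, BIK, BCL2L11, BCL2 and BMF. There BID and BAD, and BAD and BCL2L2, could not be ordered beyond their spread. BCL2L1 thus stood behind BAK1 in LOC_OE only, and BID ahead of BAD and BCL2L2 in LOC_OE only, which was not tested. In LOC_OE replicate 2, BAK1 and BCL2L1 were nearly level, at 29.9 and 29.5 FPKM. The widest gap between them was in LOC_OE replicate 1, at 57.4 and 23.8 FPKM.

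The promoters of the 3 called members are shown as a description, with BMF tested only through its Vector libraries. RefSeq promoter windows on GRCh38.p14 run from 250 bases before to 50 after a gene's start, and 7 of the 10 members were matched (not BCL2L2, MCL1 and BIK). Where a gene has several windows (2 for BCL2L1, 5 for BID and 2 for BMF), the first listed was taken. They lie at chr20:31723914-31724213 for BCL2L1, chr22:17774420-17774719 for BID and chr15:40108830-40109129 for BMF, all on the minus strand, and are printed 5′ to 3′. Capitals mark the GC box GGGCGG, the CCAAT box CCAAT or the TATA box TATAAA, each on either strand.
BCL2L1: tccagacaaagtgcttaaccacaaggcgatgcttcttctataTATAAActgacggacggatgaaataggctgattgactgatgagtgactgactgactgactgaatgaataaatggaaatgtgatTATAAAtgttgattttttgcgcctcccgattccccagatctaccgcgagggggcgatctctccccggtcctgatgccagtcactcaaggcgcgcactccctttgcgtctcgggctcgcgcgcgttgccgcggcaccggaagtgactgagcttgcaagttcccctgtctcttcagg
BID: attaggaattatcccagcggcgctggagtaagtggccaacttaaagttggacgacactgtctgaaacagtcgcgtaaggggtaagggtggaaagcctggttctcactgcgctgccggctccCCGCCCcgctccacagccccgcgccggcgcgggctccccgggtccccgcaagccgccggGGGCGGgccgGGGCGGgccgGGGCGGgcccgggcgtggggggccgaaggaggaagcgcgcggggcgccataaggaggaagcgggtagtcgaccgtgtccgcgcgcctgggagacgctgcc
BMF: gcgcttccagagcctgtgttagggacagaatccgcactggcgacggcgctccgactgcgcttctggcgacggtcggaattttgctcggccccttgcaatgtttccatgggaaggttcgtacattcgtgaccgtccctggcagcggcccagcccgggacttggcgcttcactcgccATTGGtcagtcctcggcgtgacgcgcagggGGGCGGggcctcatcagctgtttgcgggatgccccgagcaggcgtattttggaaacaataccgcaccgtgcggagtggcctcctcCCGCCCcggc

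The BCL2L1 window held TATAAA at positions -208 and -125 from the start and no GC box. The BID window held 4 GC boxes, at -129, -70, -60 and -50, and the BMF window held 2 GC boxes, at -45 and 41, and a CCAAT box at -75. Of 35116 promoter windows of this length, 45% held the GC box, 34.6% the CCAAT box and 11.5% TATAAA. The E-box CACGTG (7.26% of windows), the AP-1 site TGANTCA (7.71%), the FOXO site GTAAACA (3.42%), the E2F sites TTTCCCGC and TTTGGCGC (2.27%) and the CRE TGACGTCA (1.85%) were also searched on both strands, and their letters were in none of the 3 windows. Among the other matched members, BCL2L11 held a FOXO site at -223. A match is a description of letters and not of binding. The windows held 20, 37 and 31 CpG dinucleotides for BCL2L1, BID and BMF, against a median of 14 over all windows.

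The pathway around the members was read from 50 other genes in 5 lists, of which 46 were tested, 7 were higher and 4 were lower, to be read against the 10.7% and 9.74% of all genes tested. Over the tested genes of these lists the median was -0.026 on the log2 scale. In the fit that left out LOC_OE replicate 1, 16 were higher and 12 lower, where 35.5% of all genes were called. Without Vector replicate 1, 2 or 3 the counts were 2, 0 and 0 higher and 1 lower each time. The call was lost without at least 1 Vector library for every gene named in the next 3 paragraphs as rising or falling except BIRC3.

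Of 13 other BCL2 family genes, 10 were tested, 1 rose and 1 fell. PMAIP1 encodes NOXA, the BH3-only partner of MCL1, and was at 11.8, 10.0 and 12.4 FPKM in Vector and 14.7, 15.3 and 15.5 in LOC_OE. It rose by a log2 fold change of 0.39 (adjusted p = 0.0363 by limma), but the call was lost with equal sums of FPKM (0.14, adjusted p = 0.408), quantile normalization (0.29, adjusted p = 0.110), no filter (adjusted p = 0.0563) and the replicate block (adjusted p = 0.0673). BBC3 encodes PUMA, a BH3-only protein that binds all pro-survival members, and was at 22.5, 20.6 and 20.2 FPKM in Vector and 4.75, 10.6 and 9.05 in LOC_OE. Its log2 fold change was -1.33 (adjusted p = 0.0183 by limma). The 3 genes BCL2L10, BCL2L14 and BCL2L15 were below the filter.

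In the list of the apoptosome and the caspases, 9 genes were tested. CASP2 rose by a log2 fold change of 0.52 (adjusted p = 0.0398 by limma). The initiator CASP9 was at 3.65, 3.31 and 3.08 FPKM in Vector and 2.15, 2.01 and 2.49 in LOC_OE (-0.44, adjusted p = 0.0293 by limma). Of 8 inhibitors of apoptosis and their released antagonists, 7 were tested, 0 rose and 2 fell. BIRC3 (cIAP2), a ubiquitin ligase of death-receptor complexes, was at 8.98, 10.1 and 10.9 FPKM in Vector and 0.922, 2.36 and 2.54 in LOC_OE, the largest of these changes (-1.95, adjusted p = 0.00698 by limma). HTRA2, a mitochondrial protease, changed by -0.33 (adjusted p = 0.0298). DIABLO was below the filter.

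Of 12 protein partners and turnover factors of the members, 3 rose and 0 fell. YWHAZ, a 14-3-3 protein that retains phosphorylated BAD in the cytosol, was at 114, 102 and 107 FPKM in Vector and 207, 167 and 172 in LOC_OE (log2 fold change 0.75, adjusted p = 0.0103 by limma). VDAC1 and VDAC2, channels of the outer mitochondrial membrane of which VDAC2 binds BAK1, rose by 0.67 and 0.54 (adjusted p = 0.0255 and 0.0192). Of 8 transcription factors reported upstream of members, 1 rose, ATF4, the factor of the integrated stress response, with 86.5, 83.2 and 81.7 FPKM in Vector and 140, 212 and 208 in LOC_OE (1.12, adjusted p = 0.0107 by limma). FOXO3, named here after its values were seen, did not pass, at -0.63 (adjusted p = 0.0644 by limma). It passed without LOC_OE replicate 1 (-0.40, adjusted p = 0.00318) and, with all 6 libraries, with equal sums (-0.86, adjusted p = 0.0417), quantile normalization (-0.69, adjusted p = 0.0434), array weights (-0.38, adjusted p = 0.00368) and voom (-0.73, adjusted p = 0.0377).

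**Figure D4:**
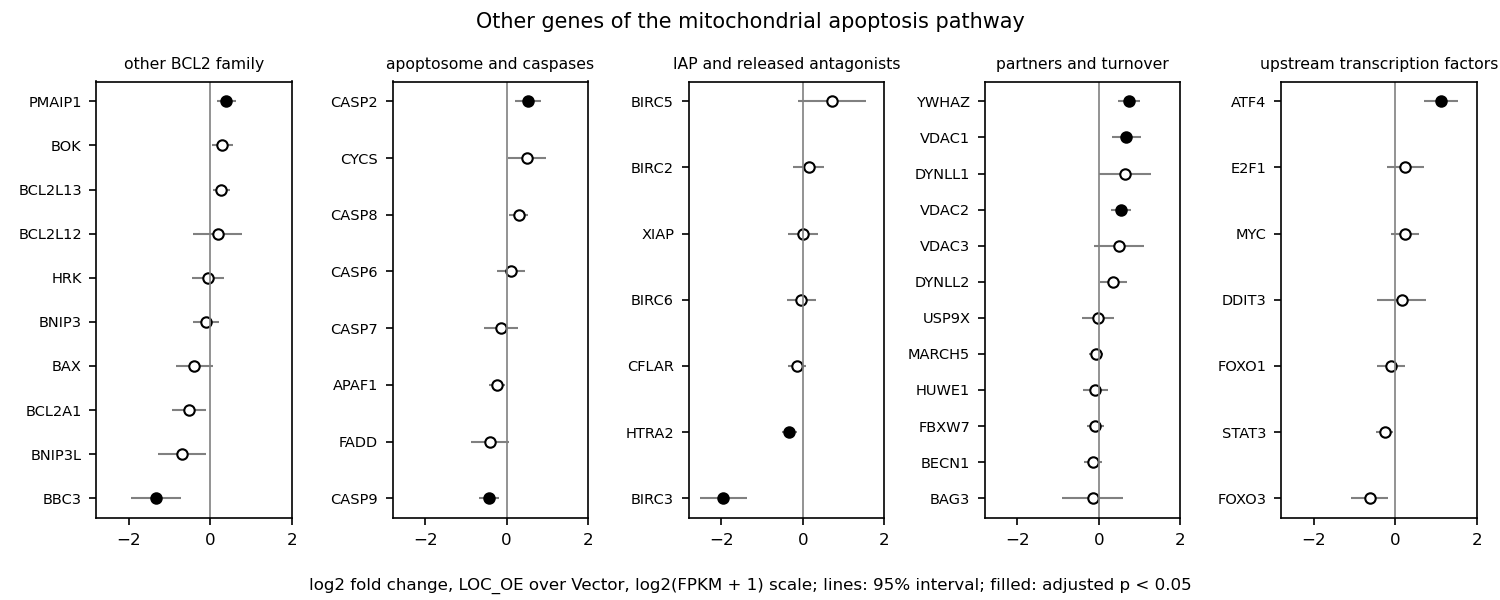
Log2 fold change of LOC_OE over Vector for tested genes of the 5 lists of other apoptosis genes (2 genes are left out), fitted on log2(FPKM + 1), 1 point per gene with its 95% interval, filled where the adjusted p is under 0.05. The called genes lie between -1.95 (BIRC3) and 1.12 (ATF4), and called genes on both sides of 0 appear among the other BCL2 family genes and among the caspases.

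The genes whose pattern over the 6 libraries was most like that of a called member were found by Pearson's r of log2(FPKM + 1) among the 13216 genes whose FPKM averaged 1 or more. For BCL2L1 they were PTPRU, ARVCF and PPP1R26 (r = 0.9989, 0.9988 and 0.9987), for BID they were PPM1F, RAD51AP1 and LPCAT1 (0.9999, 0.9991 and 0.9991), and for BMF they were HBEGF, TPST1 and GPATCH2 (0.9984, 0.9983 and 0.9981). With 6 points in 2 groups such values are common: 70, 224 and 65 genes had an r over 0.99 with BCL2L1, BID and BMF. The points share their libraries, and the values are descriptions.

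The near surroundings of BID and BMF were closer to balance. Within 5 Mb of BID, 83 genes were tested, 13 were higher and 7 lower, with a median log2 fold change of 0.022. Over the 393 tested genes of chromosome 22 the median was 0.12, and its part in the BID value was not tested. Within 5 Mb of BMF, 105 genes were tested, 10 were higher and 5 lower, with a median of -0.0069. The median over the 523 tested genes of chromosome 15 was -0.0068. The larger share of lower genes near BCL2L1 was not tested against other regions.

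The call directions of BCL2L1, BID and BMF were the same under each scaling of the libraries. Rescaling to equal sums of FPKM shifted the median over all genes to -0.18 on the log2 scale and the share of higher genes among those called from 52.2% to 18.6%. Under it BCL2L1 was at -1.16, BID at 0.66 and BMF at -0.93, and all 3 kept their calls.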

How the data were processed

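The authors sequenced RNA libraries made with a NEBNext Ultra kit on an Illumina NovaSeq and deposited 1 table of FPKM for 58735 genes and 6 libraries. The submitters' processing notes name HISAT2 2.0.4, StringTie 1.3.0 and hg38, without giving their roles. Identifiers were matched to GENCODE 29. The deposited FPKM times merged exon length were whole multiples of 1 step per library (within 0.02), which gave reads. FPKM were used without rescaling. limma 3.58.1 (R 4.3.3) was fitted with a variance trend to log2(FPKM + 1). The 16061 genes tested reached 0.5 FPKM in 3 or more libraries, and p-values were adjusted by Benjamini-Hochberg. Alternatives were a pseudocount of 0.1, no filter, a minimum mean FPKM of 1, equal sums of FPKM, quantile normalization, no variance trend, array weights, a replicate block, limma voom on the recovered reads with TMM factors from code written for this work rather than from a package, other calling thresholds, and leaving out each library. P-values measure the spread between the labelled replicates. Reads carry no molecular identifiers, so limits from reads cover counting error only.

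The members and lists were chosen with earlier results of these data known. All members, up to 3 called genes with the largest change in each direction per list, BAX, BBC3, PMAIP1, overlapping genes listed above 0 and the 3 genes most like each called member could be named. Of the listed genes, 2 are counted in the totals but not reported here. The steps were also run on simulated counts with the same noise setting in every library. Here LOC_OE replicate 1 stood apart, so that run is no support for the calls. Figures were drawn with matplotlib 3.10.9.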

Additional observations from a re-analysis of the deposited data

How the results depend on the processing

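BCL2L1 kept its direction and call in every alternative fit. BID and BMF kept theirs except without any 1 Vector library, and BMF was not tested at a mean FPKM of at least 1. Of the members, the number called higher (1) was 2 with array weights and 0 to 2 without single libraries, and the number called lower (2) was 1 at a mean FPKM of at least 1, 4 with array weights and 1 to 3 without single libraries. Of all genes, 1712 were higher and 1565 lower. With no filter 1052 were higher, with rescaling to equal sums 716 were higher and 3138 lower, with array weights 4362 and 3724, at a fold change of at least 1.5 743 and 896, and at an unadjusted p-value under 0.05 3111 and 2744. Without single libraries 144 to 3117 were higher and 227 to 2586 lower, lowest without Vector replicate 2 and highest without LOC_OE replicate 1. Of the other pathway genes, 7 were higher and 4 lower. Higher were 4 with no filter, 16 with array weights, 4 at a fold change of at least 1.5, 12 unadjusted and 0 to 16 without single libraries. Lower were 12 with equal sums, 7 with quantile normalization, 13 with array weights, 8 by voom, 2 at a fold change of at least 1.5, 10 unadjusted and 1 to 12 without single libraries.

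With the replicate number as a block, 1125 genes were higher and 940 lower, and 2 pathway genes were lower. BCL2L1, BID and BMF kept their calls (adjusted p = 0.0309, 0.0354 and 0.0451 by limma). Same-numbered libraries deviated together with correlations of 0.111, -0.034 and 0.116. LOC_OE replicates 1 and 3 correlated best with the same-numbered Vector library, and LOC_OE replicate 2 with Vector replicate 3 (0.058). Correlations within groups of so few libraries cannot settle whether the samples were paired.

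Signs turned only for members that were not called. BCL2 was at 0.11 with quantile normalization, 0.029 without Vector replicate 3 and 0.041 without LOC_OE replicate 2 (range over libraries -0.047 to 0.041). With equal sums BCL2L2 was at -0.093, MCL1 at -0.064, BAD at -0.095 and BIK at -0.060. MCL1 was at -0.12 with quantile normalization, and BIK at -0.023 with array weights. BAK1 ran from -0.35 to 0.11 without single libraries, with 0.061 without LOC_OE replicate 3. BAD ran from -0.032 (without LOC_OE replicate 1) to 0.27. The cause was not tested. Among other named genes, calls were lost for CASP2 with equal sums (adjusted p = 0.0669) and no filter (0.0747), CASP9 with no filter (0.0711), quantile normalization (0.0562) and the replicate block (0.0705), HTRA2 with the block (0.0697), VDAC1 with no filter (0.0527) and ATF4 with quantile normalization (0.0665), all by limma. Of the single-gene values under alternatives, 296 kept direction and side of the threshold, 62 lost the call, 19 gained it and 12 turned sign. A difference in a gene as low as BMF rests on at most 125 reads per library.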
